A study of Mus musculus with 27 samples.

Results

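Caspases, necroptosis genes and inflammasome genes encode the machinery by which a cell dies and releases inflammatory cytokines. Here 9 such genes, Casp8, Ripk3, Mlkl, Casp1, Casp4, Nlrp3, Gsdmd, Il1b and Il18, were followed in the mouse retina during oxygen-induced retinopathy (OIR). They were taken by symbol from a table of 40129 genes, and all 9 were in it. All 9 also passed the filter for testing, a mean of at least 1 normalized read, as did 27137 genes in all. Il1b passed it only through its OIR mice, since its mean was 0.17 in nOIR p14 and 0 in nOIR p17 mice. Its calls are therefore not independent of the filter.

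The mice were wild type, given as C57BL/6 in the labels and as C57BL/6J in the study's methods. Pups of the OIR groups breathed 75% oxygen from day 7 to day 12 and were then returned to room air. Control pups (nOIR) stayed in room air throughout, and whole retinas were taken at day 14 (p14) or day 17 (p17). At p14, 6 control mice were compared with 6 OIR mice, and at p17, 6 controls with 8 OIR mice. The controls came from 3 litters at p14 (which also gave mouse 4, left out by the study) and 2 at p17. The OIR mice came from 4 and 3 litters. Neither the labels nor the main text of the study says which litter a mouse came from. Each library held 1 retina, or both retinas of the same pup pooled, after perfusion of the heart with saline. OIR pups of low or high weight at p17 were excluded by the study, so the OIR p17 mice are selected animals. High oxygen removes vessels from the central retina, p14 falls in the phase of retinal hypoxia, and p17 in the phase of new vessel growth.

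Caspase-8 is the initiator caspase of death receptors such as the tumour necrosis factor receptor. When it is active, it drives apoptosis and cuts the kinase RIPK3. When it is not, RIPK3 phosphorylates MLKL, which breaks the plasma membrane, a form of death called necroptosis. The inflammasome is a separate platform, built on a sensor such as NLRP3 and on the adaptor ASC (gene Pycard). It activates caspase-1, which matures interleukin-1 beta and interleukin-18 and opens the pore protein gasdermin D, and caspase-4 (also called caspase-11 in mice) opens the same pore in response to bacterial lipopolysaccharide inside the cell. In the retina these genes are best known from microglia, macrophages and Müller glia, and from models of photoreceptor loss. All of these steps are controlled on the protein, by cutting or phosphorylation, which messenger RNA levels do not measure.

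Promoters are shown for the 3 members that rose at both ages, Ripk3, Mlkl and Casp8, and for Casp1, whose promoter held the same 6 bases as that of Ripk3. Each is the RefSeq sequence of 250 bases before to 50 bases after the start (mouse build GRCm38.p6), written in the direction of transcription, with matches in capitals. RefSeq sequences of this kind were found for 8 of the 9 members, Gsdmd being the one without. Letters of 6 motifs were searched on both strands.
Ripk3 (minus strand, chr14:55788808-55789107): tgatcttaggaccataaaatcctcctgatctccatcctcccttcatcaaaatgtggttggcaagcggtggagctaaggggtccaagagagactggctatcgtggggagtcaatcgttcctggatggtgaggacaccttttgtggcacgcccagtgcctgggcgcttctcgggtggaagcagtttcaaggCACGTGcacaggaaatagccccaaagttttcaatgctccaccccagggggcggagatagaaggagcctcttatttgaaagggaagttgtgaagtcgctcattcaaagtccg
Casp1 (plus strand, chr9:5298267-5298566): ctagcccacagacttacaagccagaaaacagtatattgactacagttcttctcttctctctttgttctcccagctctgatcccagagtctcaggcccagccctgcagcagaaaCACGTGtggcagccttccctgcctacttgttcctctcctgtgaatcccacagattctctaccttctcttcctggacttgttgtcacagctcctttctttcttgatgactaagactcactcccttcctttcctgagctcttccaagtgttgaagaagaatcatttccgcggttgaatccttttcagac
Mlkl (minus strand, chr8:111338156-111338455): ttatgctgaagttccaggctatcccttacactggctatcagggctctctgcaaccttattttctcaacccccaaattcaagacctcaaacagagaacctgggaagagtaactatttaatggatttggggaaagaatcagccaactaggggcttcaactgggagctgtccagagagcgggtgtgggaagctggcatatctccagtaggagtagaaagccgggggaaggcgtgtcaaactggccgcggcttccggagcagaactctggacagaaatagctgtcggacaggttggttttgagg
Casp8 (plus strand, chr1:58802252-58802551): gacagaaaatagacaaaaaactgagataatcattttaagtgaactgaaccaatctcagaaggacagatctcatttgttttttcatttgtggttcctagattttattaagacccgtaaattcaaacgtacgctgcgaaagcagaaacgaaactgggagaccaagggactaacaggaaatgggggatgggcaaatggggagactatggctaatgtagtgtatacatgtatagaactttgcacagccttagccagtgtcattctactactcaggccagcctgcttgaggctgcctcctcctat

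The capitals mark CACGTG, in which ACGTG, the core of the hypoxia response element, is read on both strands with overlapping letters. In Ripk3 the pair began 61 and 60 bases before the start, and in Casp1 137 and 136 bases before it. ACGTG was held by 19.6% of the 32851 promoters of the same length, and by 3 of the 8 members, the third being an upstream start of Nlrp3 with the letters 63 bases before it. A form of the NF-kB site (GGG, any 2 bases, TTTCC) was in 1.63% of all promoters and in 1 member, Casp4, with 2 matches at 93 and 14 bases before the first of its starts. Neither a tandem interferon response site (GAAA, any 2 bases, GAAA, in 3.44% of promoters) nor TGANTCA of AP-1 (7.81%) was in a member's window. The letters TTCNNNGAA of the STAT site (8.30%) and GAGGAAGT of PU.1 (3.20%) were not there either. The Mlkl, Casp8, Il1b and Il18 windows held none of the 6. A match of letters is a description and not a bound site, and a missing match says only that these letters are not in this window.

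The values are normalized reads, which are reads per gene divided by 1 factor per mouse for depth. Whole reads could be recovered from them, at 17029536 to 33593428 reads per mouse (median 30024568), so that for a gene of a few normalized reads each read counts. The tissue label was checked on marker genes. Gnat1, the transducin of rod photoreceptors, had between 208953 and 562711 normalized reads in every mouse used. Lens markers, which come from a neighbouring tissue, varied from 2.66 to 26935 normalized reads between mice, and none of the 3 passed the test at either age. Differences were tested by limma on log2(normalized reads + 1), with Benjamini-Hochberg adjustment over all 27137 genes, and a gene was called at an adjusted p under 0.05. Fold changes on this scale understate the change of genes with few reads. Nothing in the labels ties mice to litters, so the p-values treat the mice as independent.

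The necroptosis pair, Ripk3 and Mlkl, and Casp8 rose in OIR retinas at both ages. At p14, 4 of the 9 members were called higher (Il1b, Ripk3, Mlkl and Casp8), where 3.18% of all genes tested were. At p17 it was 5 (Ripk3, Mlkl, Casp8, Gsdmd and Casp1), beside 7.39% of all genes. No member was called lower at either age (limma), beside 2.91% of all genes at p14 and 5.12% at p17. At an unadjusted p under 0.05, 1 member was lower at p14 (Il18, beside 8.12% of all genes) and 0 at p17 (beside 11.3%), and edgeR and DESeq2 on the recovered reads also called 0 lower. The median log2 fold change of the 9 members was 1.82 at p14 and 1.22 at p17, beside 0.02 and -0.02 over all genes tested. All OIR mice lay above all controls for 3 members at p14 (Casp8, Mlkl and Il1b) and 3 at p17 (Casp8, Ripk3 and Mlkl), as they did for 1.91% and 3.9% of all genes. No member had all OIR mice below all controls, as 1.86% and 1.98% of all genes did. At the study's threshold, which adds a log2 fold change above 2 or below -2, 2 members were called higher at p14 (Il1b and Ripk3, beside 0.744% of all genes) and 4 at p17 (Ripk3, Mlkl, Casp1 and Casp8, beside 1.9%). None was called lower, beside 0.14% and 0.173%. The p14 counts of higher members include Il1b, which passed the filter for testing only through its OIR mice. In a bulk sample, a change in the number of cells of a type and a change in RNA per cell cannot be told apart.

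**Figure D1:**
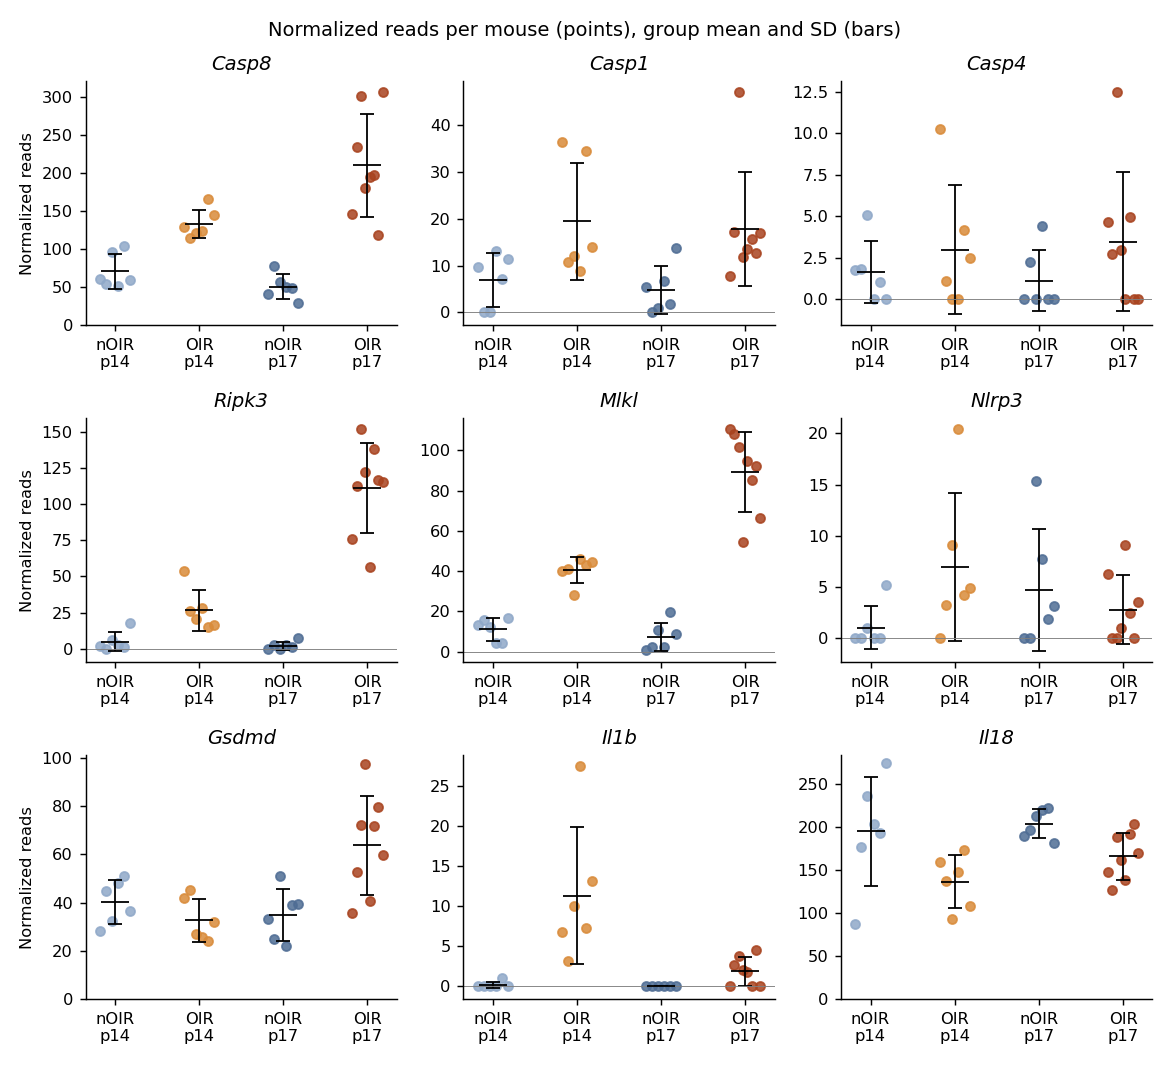
Normalized reads (vertical axis, linear, a separate scale for each gene) of the 9 members in the 4 groups. Each point is 1 mouse, and the bars give the group mean and SD (6, 6, 6 and 8 mice). Ripk3 and Mlkl in all 8 OIR p17 mice lie above every other mouse shown, and Il1b is above 3 normalized reads in all 6 OIR p14 mice and at 0 in all 6 nOIR p17 mice.

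Casp8, the initiator caspase that also cuts RIPK3, had reads in every mouse and rose at both ages. In nOIR p14 mice it ranged from 51.7 to 103.8 normalized reads (median 60.0), and in OIR p14 mice from 114.9 to 165.4 (median 126.4). At p17 the control range was 28.7 to 78.2 (median 49.4) and the OIR range 118.9 to 306.8 (median 195.9). Every OIR mouse lay above every control of its age, and also above every control of the other age. The difference on the log2 scale was 0.94 at p14 (95% CI 0.45 to 1.43, adjusted p = 0.0135) and 2.03 at p17 (95% CI 1.57 to 2.48, adjusted p = 7.01e-08). As ratios of group means these were 1.88 and 4.15. The order of the means was nOIR p17, nOIR p14, OIR p14 and OIR p17, in which limma called neither the controls nor the OIR groups different between the ages (adjusted p = 0.685 and 0.123). DESeq2 on the recovered reads called the OIR groups (log2 difference 0.66, adjusted p = 0.0290).

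Ripk3, the kinase of necroptosis, showed the largest effect of the 9 genes at p17. Control retinas held little of it, with 0 to 17.8 normalized reads at p14 (median 2.20) and 0 to 7.44 at p17 (median 1.57). OIR p14 mice had 14.7 to 53.5 (median 23.0), and OIR p17 mice 56.3 to 151.9 (median 116.2). At p14 the groups overlapped, because a single nOIR p14 mouse at 17.8 lay above 2 OIR mice. At p17 the lowest OIR mouse was far above the highest control. The means were 4.88 ± 6.66 (SD, n = 6) and 26.5 ± 14.2 (SD, n = 6) at p14, and 2.14 ± 2.78 (SD, n = 6) and 111.2 ± 31.1 (SD, n = 8) at p17. On the log2 scale the difference was 2.75 at p14 (95% CI 1.63 to 3.86, adjusted p = 0.00141) and 5.52 at p17 (95% CI 4.47 to 6.56, adjusted p = 2.74e-09). Among OIR mice the p17 level was above that at p14 (log2 difference 2.10, 95% CI 1.06 to 3.15, adjusted p = 0.00968, limma), while the controls of the 2 ages were not called different (-0.66, 95% CI -1.78 to 0.45, adjusted p = 0.894). In this comparison of OIR ages, 4.11% of all genes were higher and 1.81% lower. The call was lost with a pseudocount of 0.1, where the adjusted p was 0.184.

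Mlkl encodes the protein that RIPK3 phosphorylates and that ruptures the membrane. It ranged from 4.07 to 16.7 normalized reads in nOIR p14 mice (median 12.7) and from 28.2 to 46.1 in OIR p14 mice (median 41.9). In nOIR p17 mice the range was 0.901 to 19.5 (median 5.38), and in OIR p17 mice 54.6 to 110.4 (median 93.4). The groups were apart at both ages, and the 3 sets of values (controls, OIR p14, OIR p17) did not overlap. Mlkl rose by 1.93 on the log2 scale at p14 (95% CI 1.04 to 2.83, adjusted p = 0.00515) and by 3.88 at p17 (95% CI 3.05 to 4.72, adjusted p = 3.02e-08). The ratios of group means were 3.66 and 12.2. Between OIR mice of the 2 ages the log2 difference was 1.10 (95% CI 0.27 to 1.94, adjusted p = 0.120), and it passed the threshold by DESeq2 (adjusted p = 0.00364) and in a fit of the OIR groups alone (0.00511).

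**Figure D2:**
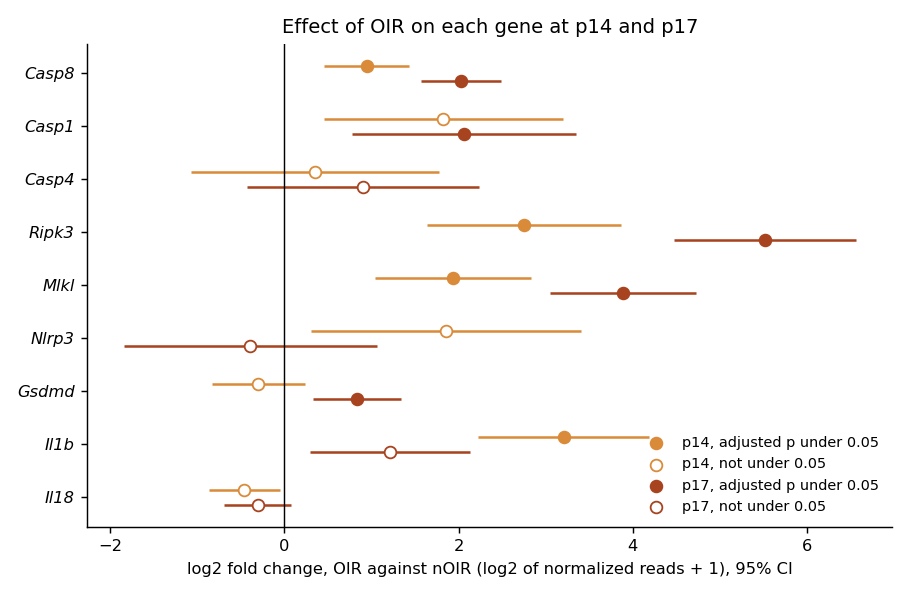
Log2 fold change of OIR against nOIR mice (horizontal axis, from log2 of normalized reads + 1) for each member, at p14 (orange) and p17 (red), with 95% CI as lines. Filled points have an adjusted p under 0.05 by limma: Casp8, Ripk3, Mlkl and Il1b at p14, and Casp8, Casp1, Ripk3, Mlkl and Gsdmd at p17.

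Whether the effect of OIR itself grew from p14 to p17 was tested as a difference of differences in the same fit. Such a difference also takes in the change of the controls between the ages. For Ripk3 the p17 effect exceeded the p14 effect by 2.77 log2 units (95% CI 1.24 to 4.30, adjusted p = 0.0541), for Mlkl by 1.95 (95% CI 0.72 to 3.18, adjusted p = 0.118) and for Casp8 by 1.08 (95% CI 0.41 to 1.75, adjusted p = 0.108). For Gsdmd it was 1.14 (adjusted p = 0.137) and for Il1b -1.99 (adjusted p = 0.159). By limma none of the 9 members was called, beside 1.43% of all genes higher and 0.147% lower, although 6 members had an unadjusted p under 0.05, 4 higher and 2 lower (Nlrp3 and Il1b). At that unadjusted threshold 6.31% of all genes were higher and 4.35% lower. DESeq2 on the recovered reads called 4 of them, namely Ripk3 (log2 difference 3.28, adjusted p = 0.00231), Casp8 (1.15, 0.0198), Mlkl (1.70, 0.0309) and Gsdmd (1.17, 0.0351), where it called 2.2% of all genes higher and 0.343% lower. EdgeR called none of the 4, with an adjusted p of 0.0569 for Ripk3, beside 1.4% of all genes higher and 0.14% lower. For Ripk3 the call was made or missed by small changes of the fit, with adjusted p from 0.00231 to 0.307 over the alternatives. Leaving out single mice gave 0.0154 to 0.108 for Ripk3, which was called without nOIR p14 mouse 2 or 6, nOIR p17 mouse 6, OIR p14 mouse 1 or OIR p17 mouse 5. Mlkl was called without nOIR p17 mouse 5 (adjusted p = 0.0238).

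Casp1 encodes the inflammasome caspase, which cuts the interleukin-1 cytokines and gasdermin D. It was low in all groups, from 0 to 13.1 normalized reads in nOIR p14 mice (median 8.45) and from 8.87 to 36.4 in OIR p14 mice (median 13.1). At p17, controls had 0 to 13.8 (median 3.63) and OIR mice 7.78 to 47.1 (median 14.7). The groups overlapped at both ages, with 3 of 6 OIR mice above the highest control at p14 and 4 of 8 at p17. Casp1 rose at p17 by 2.06 on the log2 scale (95% CI 0.78 to 3.35, adjusted p = 0.0259), and at p14 the log2 difference was 1.82 (95% CI 0.45 to 3.20, adjusted p = 0.121). The effects at the 2 ages differed by 0.24 (95% CI -1.64 to 2.12, adjusted p = 0.962), an interval wide enough for a large change either way. The call at p17 was lost with edgeR (adjusted p = 0.0708), with a pseudocount of 0.1 (0.0834), and without OIR p17 mouse 3 or nOIR p17 mouse 2, 3 or 5 (up to 0.0958). With nOIR p14 mouse 4 included, whose Casp1 was 0, Casp1 was also called at p14 (log2 difference 2.15, adjusted p = 0.0493).

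Casp4, the receptor of intracellular lipopolysaccharide, had at most 13 reads in any mouse used. Controls averaged 1.61 ± 1.87 (SD, n = 6) normalized reads at p14 and 1.11 ± 1.85 (SD, n = 6) at p17, and OIR mice 3.0 ± 3.9 (SD, n = 6) and 3.48 ± 4.17 (SD, n = 8). The 4 groups overlapped, and 11 of the 26 mice had no read. The log2 difference was 0.35 at p14 (adjusted p = 0.884) and 0.90 at p17 (95% CI -0.43 to 2.23, adjusted p = 0.460), so that neither was called. The pooled reads were 17 in OIR p14 against 10 in nOIR p14 mice, and 28 against 6 at p17. The p17 ratio of pooled levels was 3.34, with an interval of 1.36 to 9.88 that covers counting error and not the spread between mice. A single OIR p17 mouse held 13 of these 28 reads.

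Nlrp3, the inflammasome sensor, was as sparse. Its p14 level was 1.04 ± 2.09 (SD, n = 6) normalized reads in controls and 6.97 ± 7.20 (SD, n = 6) in OIR mice, and its p17 level 4.69 ± 5.96 (SD, n = 6) in controls and 2.79 ± 3.35 (SD, n = 8) in OIR mice. At p14, 2 of 6 OIR mice were above the highest control, and at p17 none of 8 was. The log2 difference was 1.85 at p14 (95% CI 0.30 to 3.40, adjusted p = 0.178) and -0.39 at p17 (95% CI -1.84 to 1.06, adjusted p = 0.816), so that neither was called. Pooling the reads of each group gave 45 reads in OIR p14 against 6 in nOIR p14 mice, and 22 against 28 at p17. A single OIR p14 mouse held 23 of these 45 reads.

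Gsdmd, the pore of pyroptosis, was called at p17 and not at p14. In nOIR p14 mice it ranged from 28.4 to 50.9 normalized reads (median 40.7) and in OIR p14 mice from 24.1 to 45.1 (median 29.7). At p17 the range was 22.1 to 50.9 (median 36.2) in controls and 35.8 to 97.3 (median 65.9) in OIR mice. At p14 no OIR mouse exceeded the highest control, and at p17 6 of 8 did. The log2 difference was -0.30 at p14 (95% CI -0.84 to 0.24, adjusted p = 0.653), and Gsdmd rose by 0.84 at p17 (standard error 0.25, adjusted p = 0.0206). Between OIR mice of the 2 ages it was higher at p17 by 0.91 (95% CI 0.41 to 1.42, adjusted p = 0.0212). The p17 call was lost with quantile normalization (0.66, adjusted p = 0.0942) and without nOIR p17 mouse 2 or 4 (adjusted p up to 0.0701), and the call between OIR ages in a fit of these groups alone (0.0635) and without OIR p14 mouse 4 (0.0507) or 5 (0.0581).

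Il1b encodes interleukin-1 beta, the pyrogenic cytokine that caspase-1 matures. Among the 6 nOIR p14 mice a single read was seen, in mouse 6, and no read in the 6 nOIR p17 mice. All 6 OIR p14 mice had Il1b, from 3.22 to 27.5 normalized reads (median 8.71). Of the 8 OIR p17 mice, 5 had it and 3 had no read, with a highest value of 4.57 (median 1.90). The groups were therefore apart at p14 and overlapped at p17. At p14 the log2 difference was 3.20 (95% CI 2.22 to 4.18, adjusted p = 4.38e-05), and the pooled reads, 73 against 1, gave a ratio of 75.3 with an interval of 13.1 to 3013 that covers counting error only. At p17 it was 1.22 (95% CI 0.30 to 2.13, adjusted p = 0.0761). With 16 reads against 0, the pooled level was at least 3.82-fold higher in OIR p17 mice, taking 3 reads over the control group as the limit. This gene with so few reads was called at p17 by edgeR (adjusted p = 0.0170), by DESeq2 (0.0329), with a pseudocount of 0.1 (0.0386) and without OIR p17 mouse 1, 6 or 8 (down to 0.0361). Il1b was lower in OIR mice at p17 than at p14, by 2.16 on the log2 scale (log2 difference -2.16, 95% CI -3.07 to -1.24, adjusted p = 0.00236). For DESeq2 this comparison had no adjusted p. An annotated gene on the opposite strand, Il1bos, overlaps the exons of Il1b, and since the library kit does not mark the strand, reads of the pair cannot be told apart.

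Il18, the other cytokine of caspase-1, had reads in every mouse and was not called at either age. It ranged from 87.9 to 274.2 normalized reads in nOIR p14 mice (median 198.3) and from 93.8 to 173.8 in OIR p14 mice (median 142.8). At p17 the control range was 181.7 to 222.6 (median 205.2) and the OIR range 127.1 to 203.9 (median 165.9). OIR mice lay low within the control range at p14, and at p17 the 2 groups overlapped. The log2 difference was -0.46 at p14 (95% CI -0.87 to -0.05, adjusted p = 0.216) and -0.31 at p17 (95% CI -0.69 to 0.07, adjusted p = 0.348). Without nOIR p14 mouse 1, the control with the lowest value, the p14 difference was -0.67 and passed the test (adjusted p = 0.0115).

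None of the 9 members was called different between nOIR mice of the 2 ages (limma, 0 called and 0 at an unadjusted p under 0.05), where 0.158% of all genes were higher and 0.158% lower, and 7.37% had an unadjusted p under 0.05. The count was also 0 by edgeR and by DESeq2, which gave no adjusted p for Casp4, Nlrp3 and Il1b. Not called does not mean unchanged. In nOIR mice the log2 difference of p17 against p14 was -0.85 for Mlkl (95% CI -1.74 to 0.05) and -0.48 for Casp8 (95% CI -0.97 to 0.005). For Nlrp3 it was 1.18 (95% CI -0.37 to 2.73), and it was positive for 2 of the 9 members. These control differences are part of the differences of effects given above.

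The rest of these pathways was read from 8 lists, beside 6.09% of all genes tested that were called in either direction at p14 and 12.5% at p17. Of the 12 necroptosis genes, 3 were called higher at p14, all of them members, and 6 at p17. The 3 others were Ripk1, the kinase upstream of RIPK3 (log2 difference 0.81, adjusted p = 0.000313), Ticam1, the adaptor TRIF (1.16, adjusted p = 0.000135), and Birc3, a brake on RIPK1 (1.76, adjusted p = 0.000721). The remaining 6 included Zbp1, a nucleic acid sensor that binds RIPK3 (1.87, adjusted p = 0.0699), Fadd and Cflar. Birc3, Zbp1, Fadd and Cflar fall outside the rule for named genes and were chosen after their values were seen. Of 8 genes for death receptors and their ligands, 3 were called higher at each age. Tnfrsf1a, the main receptor of tumour necrosis factor, rose at both ages. Controls averaged 217.7 ± 32.6 (SD, n = 6) normalized reads at p14 and 183.1 ± 36.2 (SD, n = 6) at p17, against 501.5 ± 124.7 (SD, n = 6) and 883.3 ± 167.1 (SD, n = 8) in OIR mice. Its p17 effect exceeded the p14 effect by 1.10 log2 units (limma, adjusted p = 0.00810). In this list, only Tnfrsf1a was called in that comparison. For Tnf the difference of effects was -2.58 (limma, adjusted p = 0.0625) and was not called. Fas, the receptor of Fas ligand, rose at p14 (log2 difference 1.91, adjusted p = 0.0185) and had a log2 difference of 0.78 at p17 (adjusted p = 0.345). Tnfrsf10b, the mouse receptor of the death ligand TRAIL, rose at p17 (1.87, adjusted p = 0.000119) and had a log2 difference of 0.43 at p14 (adjusted p = 0.616). Tnf itself gave no read in nOIR p14 mice and averaged 34.1 ± 15.3 (SD, n = 6) normalized reads in OIR p14 mice (adjusted p = 1.46e-07). At p17 it was at 0.368 ± 0.900 (SD, n = 6) and 8.08 ± 7.49 (SD, n = 8) (adjusted p = 0.000565). Like Il1b, Tnf passed the filter for testing only through its OIR mice.

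Among the 14 tested genes for inflammasome sensors, adaptors and regulators, 1 was called higher at p14 and 3 at p17. Txnip, a regulator that binds NLRP3, rose at both ages (0.95, adjusted p = 0.000744, and 0.87, adjusted p = 0.000313). P2rx7, the ATP channel that sets off NLRP3, rose at p17 (1.47, adjusted p = 0.0290). Pycard, the adaptor ASC, averaged 68.2 ± 14.9 (SD, n = 6) normalized reads in nOIR p14 and 94.2 ± 21.9 (SD, n = 6) in OIR p14 mice (adjusted p = 0.258). At p17 it rose by 0.81 log2 units (adjusted p = 0.00481), with 62.3 ± 24.5 (SD, n = 6) in controls and 105.4 ± 17.9 (SD, n = 8) in OIR mice. The other sensors tested (Nlrp1a, Nlrp1b, Nlrc4, Aim2 and the Naip genes) were not called. Of the 4 tested gasdermin and membrane rupture genes, Ninj1, which tears the membrane late in several forms of death, rose at both ages (0.73, adjusted p = 0.00601, and 1.09, adjusted p = 6.33e-06).

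In the interleukin-1 family, 4 of 11 tested genes were called higher and 1 lower at p14, and 2 higher and 1 lower at p17. Il1a, the other interleukin-1 ligand, rose like Il1b at p14 (log2 difference 2.55, adjusted p = 0.00113). Its level was then 10.9 ± 4.62 (SD, n = 6) in controls and 69.6 ± 29.7 (SD, n = 6) in OIR mice, in normalized reads. It had a log2 difference of 1.33 at p17 (adjusted p = 0.0571). The receptor Il1r1 rose at both ages (0.95, adjusted p = 0.00570, and 0.98, adjusted p = 0.000931). Il1rn, the natural antagonist of that receptor, falls outside the rule for named genes and is given here after its values were seen. No read of it was found in nOIR p14 mice, and OIR p14 mice had 15.4 ± 11.4 (SD, n = 6) normalized reads (adjusted p = 0.000713). Il1rn averaged 0.155 in nOIR p17 mice and also passed the filter for testing only through its OIR mice. Il33, an alarmin of Müller glia and other cells, was the gene that fell, by 0.89 at p14 (adjusted p = 0.00141) and by 0.87 at p17 (adjusted p = 0.000312). Of 5 Müller glia markers, 3 were also called lower at both ages, namely Aqp4 (-0.78 and -0.86), Glul (-0.98 and -0.47) and Rlbp1 (-0.52 and -0.63), while Vim was higher (1.14 and 1.46) and Slc1a3 was not called. Their sums were 42897 to 56622 normalized reads in nOIR p14 and 36856 to 47569.7 in OIR p14 mice, and 44013 to 52423 and 33667 to 50802 at p17. The part of these cells in the Il33 result was not tested. Of the 6 genes of the signal behind the interleukin-1 and Toll-like receptors, 3 were called higher at p17, namely Myd88 (0.87, adjusted p = 2.01e-05), Irak4 (1.22, adjusted p = 0.0101) and Irak1 (0.35, adjusted p = 0.0303). At p14 their smallest adjusted p was 0.120, for Irak3.

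Of the other caspases, Casp6, an executioner caspase, rose at p17 (0.88, adjusted p = 2.14e-06). Casp2, Casp9 and Casp12 were not called at either age, and Casp14 was too low to be tested. Of 14 genes of mitochondrial apoptosis, 3 were called at p17, and at p14 the smallest adjusted p was 0.0750, for Xiap. The 3 were Pmaip1 (NOXA, 2.02, adjusted p = 0.000115) and Bcl2l11 (BIM, 0.47, adjusted p = 0.00727), which promote death and were higher, and Xiap, which inhibits caspases and was lower (-0.45, adjusted p = 0.00459). Over the 8 lists, 75 genes were tested, of which 11 were called at both ages, 3 at p14 alone and 15 at p17 alone.

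**Figure D3:**
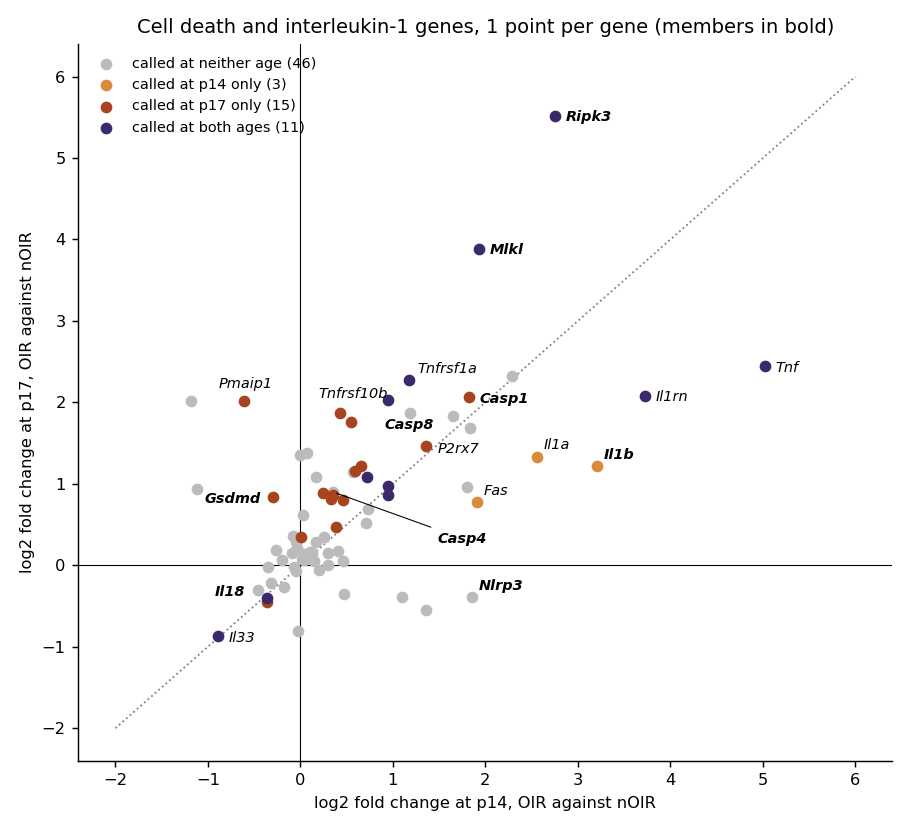
Log2 fold change of OIR against nOIR at p14 (horizontal axis) and at p17 (vertical axis) for the 75 tested genes of the 8 lists, coloured by the ages at which limma called them. The dotted line marks equal effects, and members are in bold. Ripk3 and Mlkl lie above the line, and Il1b, Il1a and Tnf below it.

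Mean summed levels of immune cell markers were higher in OIR mice mainly at p17. The 10 markers of microglia and macrophages, the resident immune cells of the retina and their relatives from blood, summed to 2160 to 2703 normalized reads in nOIR p14 and 2116 to 3245 in OIR p14 mice. At p17 the sums were 1680 to 2085 in controls and 2934 to 4875 in OIR mice, so that they overlapped at p14 and were apart at p17. The ratio of the mean sums was 1.14 at p14 and 2.11 at p17. With limma, 1 of the 10 markers was called higher at p14 (Cd68) and 7 at p17. Over all 10, log2 differences ran from -0.79 (P2ry12) to 1.29 (Cd68) at p14 and from 0.03 to 2.98 at p17. Monocyte markers (Ly6c2, Ccr2, Plac8) summed to at most 4.38 normalized reads in the other 3 groups and to 4.54 to 34.6 in OIR p17 mice. For neutrophils, 6 of 8 markers were in the table and their sums were 0 to 11.7 in the other 3 groups and 1.56 to 42.1 in OIR p17 mice. T and NK cell markers summed to at most 9.61. Both haemoglobin genes and 4 of 5 endothelial markers were also called higher at p17. Of 9 markers of retinal neurons, 3 were called lower at p14 and 4 at p17, and none was called higher.

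The members were also read as ratios to these sums. Per 1000 reads of the microglia and macrophage markers, Ripk3 was at 2.01 ± 2.81 (SD, n = 6) in nOIR p14 and 9.51 ± 3.70 (SD, n = 6) in OIR p14 mice, and at 1.06 ± 1.33 (SD, n = 6) and 27.8 ± 6.56 (SD, n = 8) at p17. Mlkl went from 3.99 ± 4.01 (SD, n = 6) to 23.2 ± 8.10 (SD, n = 8) at p17, and Casp8 from 27.0 ± 8.82 (SD, n = 6) to 52.4 ± 13.8 (SD, n = 8). For these 3 genes the ratio to the markers was thus higher in the mean of OIR mice, and for Ripk3 and Mlkl the p17 groups did not overlap on it. Gsdmd was at 18.8 ± 6.82 (SD, n = 6) in nOIR p17 and 15.8 ± 4.33 (SD, n = 8) in OIR p17 mice, a difference within the spread. Casp1 was at 2.43 ± 2.46 (SD, n = 6) and 4.43 ± 2.87 (SD, n = 8), also with overlap. Il18 was at 108.9 ± 15.9 (SD, n = 6) and 41.9 ± 6.37 (SD, n = 8), with no overlap. These ratios are descriptions, since the markers themselves changed, and the part of these cells in each result was not tested.

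**Figure D4:**
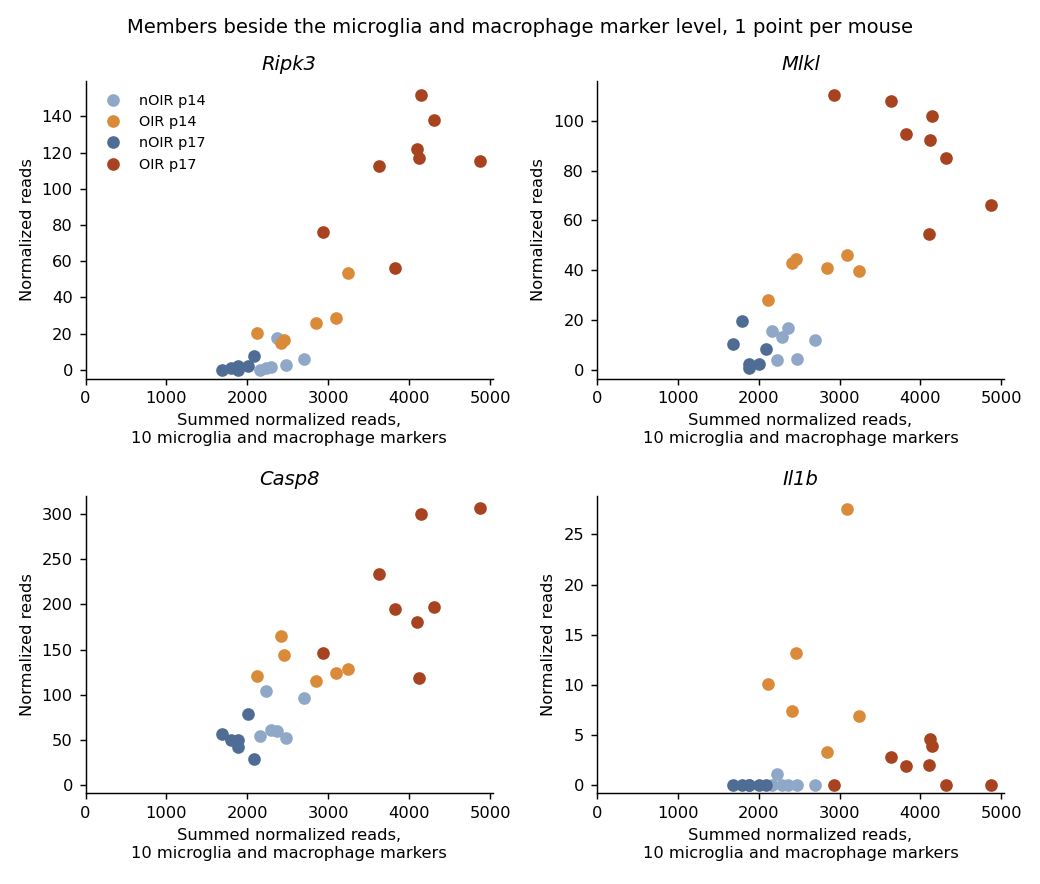
Normalized reads of Ripk3, Mlkl, Casp8 and Il1b (vertical axes) against the summed normalized reads of 10 microglia and macrophage markers (horizontal axis), 1 point per mouse, coloured by group. All 8 OIR p17 mice lie above every other mouse in Ripk3 and Mlkl and above every control in marker sum, with OIR p17 mouse 1, the highest in Mlkl (110.4), at the lowest sum of its group (2934). That mouse had the fewest reads of all (17029536), and its Mlkl value rests on 71 reads. The highest Il1b, 27.5, is OIR p14 mouse 4, with a sum of 3093.

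Across the 26 mice, Ripk3, Mlkl and Casp8 varied together. Pearson's r of log2(normalized reads + 1) was 0.86 between Ripk3 and Mlkl, 0.82 between Ripk3 and Casp8 and 0.80 between Mlkl and Casp8. Other pairs were weaker, from 0.66 for Casp1 and Ripk3 down to -0.48 for Il1b and Il18. These mice share 4 groups, so differences between the groups enter the correlations, which are given as a description. How much of each r comes from the groups was not tested. For each member with a mean of at least 10, the 3 genes of most similar pattern were found in the same way. Gimap4, Mcm6 and Acta2 were closest to Ripk3 (r = 0.94, 0.93 and 0.93), Pbk, Unc5b and Mcam to Mlkl (0.93, 0.93 and 0.92), and Litaf, Upp1 and Tagln2 to Casp8 (0.94, 0.94 and 0.93). Smpdl3b, Ticam2 and Irf9 were closest to Casp1 (0.84, 0.79 and 0.78), Vgll4, Pglyrp1 and Abracl to Gsdmd (0.75, 0.75 and 0.74), and Dnajc30, Hmox2 and Efemp1 to Il18 (0.79, 0.79 and 0.79).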

How the data were processed

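Retinal RNA of 27 mice was sequenced, 1 library per mouse. The authors made cDNA with a SMARTer kit and Nextera XT libraries, mapped reads to Gencode M28 with RNA STAR 2.7.8a and counted them with featureCounts 2.0.1 (versions from the submitters' processing notes). The signal the authors deposited is the count of each gene over the mouse's DESeq2 1.34 size factor. Multiplying by 1 factor per mouse gave whole reads for 100% of the deposited values (tolerance 0.01). The deposited table also holds the authors' group means, log2 fold changes and adjusted p-values, which were not used. The study left out nOIR p14 mouse 4, and it is left out here.

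Values were put on the log2 scale with a pseudocount of 1. The 27137 genes averaging 1 normalized read or more were tested with limma 3.58.1 (lmFit, eBayes with trend) in R 4.3.3 in a joint fit of the 4 groups and Benjamini-Hochberg adjustment over all of them, after a run on simulated data. CI are 95% intervals from limma. Bounds of pooled read ratios are exact and, like the limit of 3 reads, cover counting error only, since PCR copies were not removed. As alternatives, the pseudocount was set to 0.1, the mean filter dropped or raised to 10, mouse 4 put back, the fit limited to the compared groups or given a replicate block, and the values rescaled to equal totals or quantile normalized. EdgeR 4.0.16 and DESeq2 1.42.0 were run on recovered reads, the threshold lowered to 0.01, Xist used as a covariate, and each mouse left out. Log2 Cryaa as a covariate was added after the data were seen. Motifs were searched in Python 3.11.15.

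The members and lists were chosen with earlier results of these data known. Named beside the members are list genes with a mean of at least 10 and an adjusted p under 0.05 at either age (at most 5 per list and age), other caspases (not all reported here) and Pycard, and the 3 genes most correlated with each member.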

Additional observations from a re-analysis of the deposited data

Results flagged for a closer look

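Within each member and group of 6 or 8 mice, the highest and lowest values were compared with the nearest other value by Dixon's limits, in 35 groups, of which chance alone marks about 1 in 20. There were 3 such values. Casp1 in OIR p17 mouse 3 was 47.1 normalized reads, and the next highest of the 8 mice was at 17.3. Without this mouse the call of Casp1 at p17 was lost. Mlkl in OIR p14 mouse 3 was 28.2 normalized reads, below the next lowest at 39.8 and still above all 6 controls. Il1b in nOIR p14 mouse 6 was 1.02 normalized reads, a single read, where the other 5 mice had none. Mouse 4 of the same group, which entered only an alternative, had 1.98 normalized reads of Il1b.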

How the results depend on the processing

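The direction of Casp8, Ripk3 and Mlkl at p14 and p17, and their calls, at an adjusted p under 0.05 were the same under every alternative run. The members called higher numbered 4 at p14 and 5 at p17, and 3 at each age with an adjusted p under 0.01. Over the alternatives that kept every mouse, the counts ran from 3 to 5 at p14 and from 3 to 6 at p17. Leaving out single mice gave 3 to 6 at p17 (3 without nOIR p17 mouse 2) and, for members called lower at p14, 0 to 1 (Il18 without nOIR p14 mouse 1). Casp4, Nlrp3 and Il1b were not tested with a mean of at least 10.

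Signs turned in effects that were not called. For Casp1 the effect at p17 minus that at p14 was -0.076 with a pseudocount of 0.1 and -0.0895 with mouse 4 included, the p17 minus p14 difference was 0.00883 in nOIR mice with mouse 4 included, and in OIR mice it was 0.31 with Xist as a covariate. With single mice left out, the ranges were -0.053 to 0.66 for Casp4 at p14, -0.75 to 0.056 for Nlrp3 at p17, -0.16 to 0.71 for the difference of Casp1 effects, -0.79 to 0.0769 for Casp1 and -0.0732 to 0.25 for Il18 between nOIR ages, and -0.30 to 0.14 for Casp1 and -0.17 to 0.55 for Casp4 between OIR ages. The cause was not tested.

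Mice of the same number did not deviate together (r from -0.108 to 0.140), so the numbers do not pair them. With the replicate block, 4 members were called higher at p14 and 4 at p17, where Gsdmd was lost (0.81, adjusted p = 0.0678), and between OIR ages the adjusted p was 0.0529 for Ripk3 (1.88) and 0.0822 for Gsdmd (0.89). The block left 255 genes with a larger and 14 with a smaller effect at p17, from 389 and 40. Rescaling each mouse to the same total moved the split of higher and lower calls over all genes from 862 and 790 to 1019 and 609 at p14, and from 2005 and 1390 to 2406 and 964 at p17. Depth limits the precision for Casp4, Nlrp3 and Il1b, with at most 31 reads per mouse.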
